A study of Homo sapiens with 22 samples.

Results

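The 9 genes described here encode amino acid carriers of the cell surface and the heavy chain that some of them need, and were followed in Kasumi-1 cells after FIP1L1 was knocked down. They are SLC7A5, SLC3A2, SLC7A6, SLC7A11, SLC7A1, SLC1A4, SLC1A5, SLC38A1 and SLC38A2. They were chosen by name, with earlier results of these data known, so their counts beside all tested genes are a description. Matching of their symbols to Ensembl IDs found all 9 among the 48162 genes of the RNA-seq count table. All 9 also passed the filter on low counts that left 15834 genes for testing. Kasumi-1 is an established acute myeloid leukaemia cell line with a RUNX1 and RUNX1T1 fusion. FIP1L1 is a subunit of the complex that recognises and cuts pre-mRNA at its poly(A) signal. The 3 groups, of 4 RNA-seq libraries each, were cells carrying a control shRNA, FIP1L1 shRNA 1 or FIP1L1 shRNA 2. Each shRNA came by lentivirus, transduced cells of all groups were selected with puromycin, and all grew in RPMI medium with 10% FBS. The replicates are called biological without a statement that they were separate transductions, and a p-value here reflects only how much these libraries spread, which may be technical.

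A cell takes up most amino acids through a small set of carriers that work together. SLC3A2, the CD98 heavy chain, carries no amino acid itself but brings light chains such as SLC7A5, SLC7A6 and SLC7A11 to the plasma membrane, each bound to it by a disulfide bridge. SLC7A5 imports leucine and other large neutral amino acids by giving out an amino acid already inside, often glutamine, which sodium-driven carriers such as SLC1A5, SLC38A1 and SLC38A2 bring in. Leucine taken up in this way feeds mTORC1 signalling, and leukaemia cells are known to express SLC7A5 and SLC1A5. Several of these genes are known targets of ATF4, the transcription factor of the amino acid stress response, and some of MYC.

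Because ATF4, MYC and NFE2L2 transcripts are described further on, the start regions of the transporter genes were read for the letters these factors are known to bind. RefSeq start regions (GRCh38.p14, 250 bases before to 50 after each start) were matched by symbol for 8 of the 9 genes, with 14 regions in all, and not for SLC7A11. The ATF4-C/EBP composite motif TGATGNAAN, searched on both strands, was found in 5 of these 14 regions, and in 3.61% of all 35116 regions in the table. Its matches are shown here 5′ to 3′ along the gene's strand, with the motif in capitals and up to 10 bases on each side.
SLC3A2, plus strand, chr11:62881725-62881748: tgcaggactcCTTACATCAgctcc
SLC7A1, minus strand, chr13:29595663-29595691: ggcgcactgcTGATGAAACctggcgccgg
SLC1A4, plus strand, chr2:64989381-64989409: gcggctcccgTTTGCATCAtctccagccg
SLC38A1, minus strand, chr12:46266502-46266530: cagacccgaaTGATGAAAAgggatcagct
SLC1A5, minus strand, chr19:46784893-46784921: aggaagtggcTGATGCAAGctgtccaggg
The match began 8 bases before the start site in SLC1A4, 4 before in SLC38A1 and 97 before in SLC1A5, and at base 8 and base 37 of the transcript in SLC7A1 and SLC3A2. In SLC3A2 and SLC1A4 the motif lies in reverse complement. The E-box CACGTG, the motif known for MYC, reads the same on both strands and was present in 2 of the 14 regions, against 7.26% of all regions.
SLC7A5, minus strand, chr16:87869622-87869647: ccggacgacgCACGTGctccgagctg
SLC1A5, minus strand, chr19:46787328-46787353: cgggagtggtCACGTGgacaggacgg
The antioxidant response core TGACNNNGC, known for NFE2L2, was found on either strand in 5 of the 14 regions, namely of SLC7A5, SLC3A2, SLC7A1, SLC7A6 and SLC1A5, and in 13.4% of all regions. No match of 1 motif overlapped a match of another. These letters are a description of the start regions and show no binding.

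Each RNA-seq library held between 12236937 and 20388437 counts. Levels are given as CPM, counts scaled to a common library size after TMM scaling. FIP1L1 stood between 38.9 and 44.1 CPM in the control libraries, between 14.1 and 17.6 with shRNA 1 and between 18.7 and 20.2 with shRNA 2, with no overlap of either shRNA with the control. All 7 Kasumi-1 markers (KIT, CD34, MPO, CD33, ANPEP, RUNX1T1 and CD38) averaged at least 1 CPM in each group, and their summed level was 17508 to 19630 CPM in the control, 7750 to 9947 with shRNA 1 and 10708 to 13274 with shRNA 2. Most of this sum was MPO (mean 16234 CPM in the control), and the other markers did not all follow it. With shRNA 2, CD33 and ANPEP rose by 1.34 and 0.96 in log2 and KIT was level at 0.005 (edgeR adjusted p = 0.958). Among markers of other cells, HBB, HBG1, PF4, CD163, FCGR3B, MS4A1, COL1A2 and COL3A1 had no count in any library. Markers of fibroblasts, epithelium and endothelium summed to 122 to 150 CPM in the control, nearly all EPCAM, 38.6 to 48.2 with shRNA 1 and 135 to 144 with shRNA 2. Monocyte markers summed to 42.5 to 47.1 CPM in the control, 51.5 to 66.3 with shRNA 1 and 37.9 to 55.3 with shRNA 2, and within them LYZ (log2 changes 2.87 and 3.28) and ITGAM (1.33 and 2.44) rose with both shRNAs. Lymphoid markers summed to 13.1 to 17.6, 8.51 to 18.6 and 22.2 to 28.6 CPM. The part of these marker levels in the transporter values was not tested. No pair of replicates agreed within sampling noise, and the shRNA 1 libraries differed most among themselves. Their chi-square over degrees of freedom reached 32.6, against 7.90 in the control and 6.86 with shRNA 2. Replicates 1 and 2 stood apart from 3 and 4, with values of 15.2 to 32.6. Replicates 3 and 4 were close to each other (4.12), while 1 and 2 also differed (11.8), so they are not a uniform pair.

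With shRNA 1, 6 of the 9 transporters were lower than in the control, 2 were higher and 1 was not called, at an edgeR adjusted p under 0.05. The background is that 28.7% of all tested genes were lower and 28.6% higher, 57.3% in either direction. With shRNA 2, 6 were lower, 1 was higher and 2 were not called, beside 25.3% of all tested genes lower, 24.7% higher and 50.0% called. The 5 transporters SLC7A5, SLC7A6, SLC7A1, SLC38A1 and SLC38A2, were lower with both shRNAs, and SLC1A4 was higher with both, beside 12.8% and 12.6% of all tested genes. Both comparisons share the 4 control libraries. The median log2 change of the 9 genes was -0.46 with shRNA 1 and -0.55 with shRNA 2, while over all tested genes it was 0.02 and 0.00. In bulk RNA a lower level in every cell and a smaller share of cells expressing the gene cannot be told apart.

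**Figure D1:**
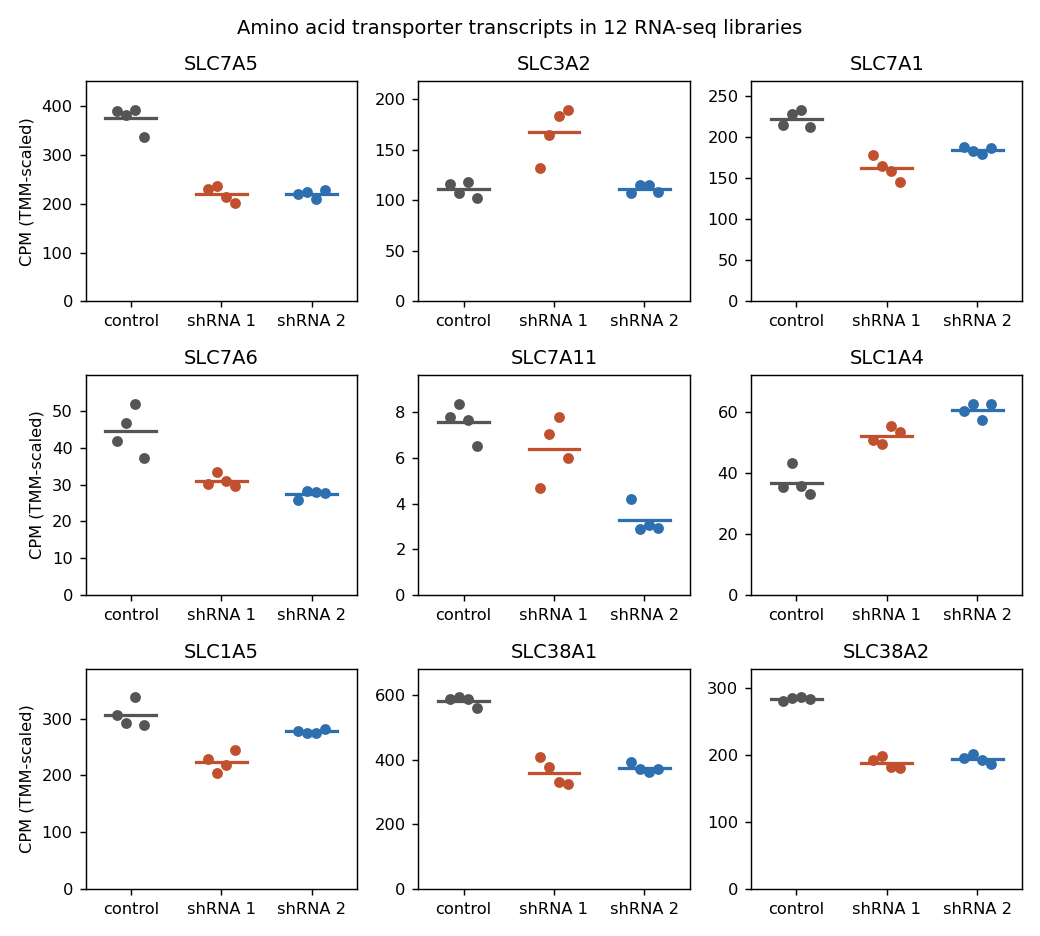
CPM (TMM-scaled, linear axis from 0) of the 9 transporters in each of the 12 RNA-seq libraries, with a point per library and a bar at the group mean. SLC7A5, SLC38A1 and SLC38A2 lie lower in all 8 knockdown libraries than in the control, SLC1A4 lies higher in all 8, and SLC3A2 is raised with shRNA 1 and level with the control with shRNA 2.

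SLC7A5, the leucine carrier LAT1 (ENSG00000103257, GRCh38 chromosome 16, 87830023 to 87869488, minus strand), fell by a similar amount with each shRNA. The control libraries held 392, 383, 393 and 338 CPM. With shRNA 1 they held 230, 236, 213 and 202 CPM, and with shRNA 2 219, 224, 211 and 229 CPM. No knockdown library reached the lowest control, and those of both shRNAs overlapped. Its log2 change against the control was -0.77 for shRNA 1 (SE 0.07, edgeR adjusted p = 8.62e-10) and -0.77 for shRNA 2 (SE 0.07, edgeR adjusted p = 1.73e-09), which left 58.6% and 58.7% of the control level. The difference of shRNA 2 from shRNA 1 was 0.004 (95% interval -0.13 to 0.14, edgeR adjusted p = 0.967). Reads of SLC7A5 may be shared with its copy SLC7A5P1, which was given 27 to 65 counts per library against 3071 to 6019 for SLC7A5.

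SLC3A2, the CD98 heavy chain that holds SLC7A5 at the membrane (ENSG00000168003, GRCh38 chromosome 11, 62856102 to 62888875, plus strand), did not follow its partner. It stood at 116, 108, 118 and 102 CPM in the control libraries, and at 107, 115, 115 and 108 CPM with shRNA 2. With shRNA 1 it stood at 132, 165, 184 and 189 CPM. All 4 shRNA 1 libraries lay above all of the others, while control and shRNA 2 overlapped. The log2 rise with shRNA 1 was 0.59 (SE 0.09, edgeR adjusted p = 4.11e-06), or 1.51-fold. With shRNA 2 the change was 0.007 (95% interval -0.17 to 0.19, edgeR adjusted p = 0.953), and shRNA 2 was lower than shRNA 1 by a tested difference of -0.59 (SE 0.09, edgeR adjusted p = 4.5e-06).

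The size of the SLC3A2 rise differed among the shRNA 1 libraries. With replicates 1 and 2 alone it was 0.42 in log2 (edgeR adjusted p = 6.92e-05), and with 3 and 4 alone 0.75. Granulocyte markers varied over the same libraries. Their summed level was 484, 730, 1082 and 1472 CPM in shRNA 1 replicates 1 to 4, so replicate 1 was lowest and replicate 4 highest for both. FIP1L1 (14.1, 14.7, 15.1 and 17.6 CPM) and the summed Kasumi-1 markers (7750, 7995, 9163 and 9947 CPM) rose in the same order. The granulocyte sum over the 8 genes of the list, mostly ELANE, AZU1, PRTN3 and CSF3R, ran from 733 to 861 CPM in the control and from 439 to 650 with shRNA 2, and FCGR3B was at 0 throughout. These genes did not move together with shRNA 1. AZU1 and PRTN3 were higher than in the control (log2 changes 1.47 and 1.00), CSF3R was lower (-1.32) and ELANE was not called. The part of these levels in the SLC3A2 values was not tested.

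The balance of light to heavy chain was read as the ratio of SLC7A5 to SLC3A2 counts in each library, which does not depend on the scaling of libraries. The ratios were 3.39, 3.56, 3.34 and 3.30 in the control. They were 1.74, 1.43, 1.16 and 1.07 with shRNA 1, and 2.05, 1.95, 1.83 and 2.12 with shRNA 2. The 3 groups did not overlap. The mean ratio was 3.40 ± 0.113 (SD, n = 4) in the control, 1.35 ± 0.304 with shRNA 1 and 1.99 ± 0.126 with shRNA 2. On the log2 scale the ratio changed by -1.36 with shRNA 1 and -0.77 with shRNA 2, and each of the 3 pairwise differences had p = 0.0286 by a two-sided exact permutation test, which is the smallest p that 4 against 4 libraries allow and stayed at 0.0286 when adjusted over the 3. Between the shRNAs the log2 ratio differed by 0.58, with shRNA 2 higher, a value that became 0.33 with shRNA 1 replicates 1 and 2 alone and 0.83 with 3 and 4 alone.

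**Figure D2:**
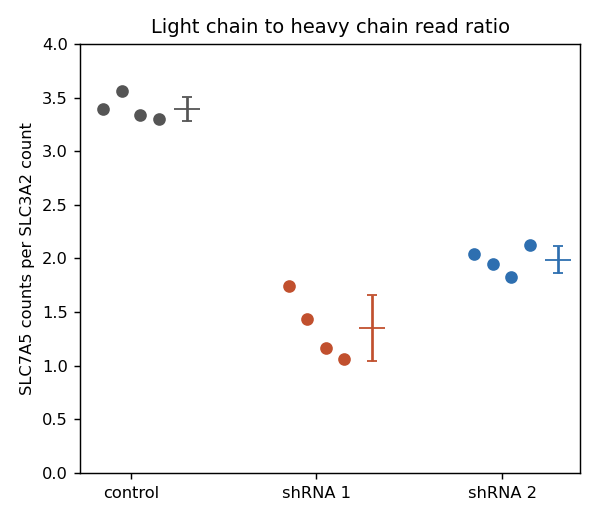
SLC7A5 counts per SLC3A2 count (linear axis from 0) in each RNA-seq library, with the group mean and SD drawn beside the points. The control libraries lie between 3.30 and 3.56, the shRNA 2 libraries between 1.83 and 2.12 and the shRNA 1 libraries between 1.07 and 1.74.

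SLC7A6, a light chain known as y+LAT2 that gives out arginine for glutamine and sodium (ENSG00000103064, GRCh38 chromosome 16, 68264516 to 68301823, plus strand), fell with both shRNAs. In the control it stood at 41.9, 46.9, 52.0 and 37.3 CPM, with shRNA 1 at 30.1, 33.4, 31.0 and 29.6 CPM, and with shRNA 2 at 26.0, 28.3, 28.1 and 27.6 CPM. Every knockdown library was below every control library. The log2 changes were -0.52 (SE 0.10, edgeR adjusted p = 7.71e-05) and -0.69 (SE 0.10, edgeR adjusted p = 2.8e-06). SLC7A6 shares 3371 exonic bases with SLC7A6OS on the other strand, which was given 114 to 328 counts per library against 417 to 753 for SLC7A6, and reads there cannot be told apart.

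SLC7A11, the light chain xCT that imports cystine in exchange for glutamate (ENSG00000151012, GRCh38 chromosome 4, 138164097 to 138242349, minus strand), was the least abundant of the 9, with 44 to 153 counts per library. Control libraries held 7.77, 8.37, 7.67 and 6.51 CPM, and shRNA 1 libraries 4.68, 7.04, 7.76 and 5.99 CPM, so these groups overlapped. With shRNA 2 it was at 4.19, 2.89, 3.07 and 2.92 CPM, below every library of the other groups. Its log2 change with shRNA 2 was -1.21 (SE 0.20, edgeR adjusted p = 3.06e-05), to 43.4% of the control. With shRNA 1 the value was -0.25 (95% interval -0.65 to 0.16, edgeR adjusted p = 0.288), and shRNA 2 lay below shRNA 1 by a tested difference of -0.96 (SE 0.20, edgeR adjusted p = 0.00029).

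Among the 6 light chains that pair with SLC3A2 and were measured here (SLC7A5, SLC7A6, SLC7A7, SLC7A8, SLC7A10 and SLC7A11), SLC7A5 made up most of the level per kilobase of exon. Its share of their sum was 91.2% ± 0.582 (SD, n = 4) in the control, 88.2% ± 0.341 with shRNA 1 and 89.3% ± 0.529 with shRNA 2. SLC7A6 held 6.73% ± 0.620, 7.78% ± 0.367 and 6.95% ± 0.367. SLC7A11 held 0.902% ± 0.0521, 1.26% ± 0.283 and 0.650% ± 0.126. Per kilobase, the 6 light chains summed to 4.07 ± 0.142 times the SLC3A2 level in the control, 1.67 ± 0.370 times with shRNA 1 and 2.43 ± 0.149 times with shRNA 2. The light chain shares were not tested.

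SLC7A1, the carrier CAT1 for arginine and lysine that needs no heavy chain (ENSG00000139514, GRCh38 chromosome 13, 29509410 to 29595688, minus strand), fell with both shRNAs. It was at 215, 228, 233 and 212 CPM in the control libraries. The shRNA 1 libraries gave 179, 164, 159 and 145 CPM, and the shRNA 2 libraries 188, 182, 179 and 186 CPM. Neither shRNA overlapped the control, and the 2 shRNAs did not overlap each other. The log2 changes were -0.46 (SE 0.06, edgeR adjusted p = 2.33e-06) and -0.27 (SE 0.06, edgeR adjusted p = 0.00124). The difference between shRNAs, 0.18 (edgeR adjusted p = 0.0177), lost its call without shRNA 1 replicate 4 (edgeR adjusted p = 0.0616), with upper quartile scaling (0.142) and with shRNA 1 replicates 1 and 2 alone (0.161).

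The sodium-driven neutral carriers of the SLC1 family parted. SLC1A5, the glutamine carrier ASCT2 (ENSG00000105281, GRCh38 chromosome 19, 46774883 to 46788594, minus strand), was at 306, 292, 337 and 288 CPM in the control. It was at 229, 205, 218 and 245 CPM with shRNA 1 and at 279, 275, 274 and 282 CPM with shRNA 2. Both shRNA groups lay below all control libraries, by a wide gap with shRNA 1 and a narrow one with shRNA 2. The log2 change with shRNA 1 was -0.45 (SE 0.07, edgeR adjusted p = 3.33e-06). With shRNA 2 the value was -0.14 (95% interval -0.28 to -0.004) and did not pass (edgeR adjusted p = 0.0807), while a fit of only these 2 groups gave edgeR adjusted p = 0.0247 and a range of 0.0247 to 0.288 over all settings. The shRNA 2 level was higher than that of shRNA 1 by a tested difference of 0.31 (SE 0.07, edgeR adjusted p = 0.000298).

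SLC1A4, the carrier ASCT1 for alanine, serine and cysteine (ENSG00000115902, GRCh38 chromosome 2, 64988477 to 65023865, plus strand), was the member that rose with both shRNAs. Control libraries held 35.4, 43.0, 35.6 and 33.0 CPM. Those with shRNA 1 held 50.7, 49.5, 55.2 and 53.3 CPM, and those with shRNA 2 60.1, 62.3, 57.4 and 62.6 CPM. All 8 knockdown libraries exceeded the highest control, and shRNA 2 lay above shRNA 1. Its log2 rises were 0.51 (SE 0.08, edgeR adjusted p = 1.66e-05) and 0.72 (SE 0.08, edgeR adjusted p = 1.48e-07), or 1.42-fold and 1.65-fold. The difference of 0.22 between shRNAs (edgeR adjusted p = 0.0255) lost its call without shRNA 1 replicate 2 (0.0629), shRNA 2 replicate 2 (0.0572) or shRNA 2 replicate 4 (edgeR adjusted p = 0.066). It was also lost with upper quartile scaling (edgeR adjusted p = 0.143) and with shRNA 1 replicates 3 and 4 alone (0.12).

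The glutamine carriers SLC38A1 and SLC38A2 fell together. SLC38A1, known as SNAT1 (ENSG00000111371, GRCh38 chromosome 12, 46183063 to 46270017, minus strand), stood at 587, 593, 587 and 559 CPM in the control. It stood at 409, 377, 330 and 323 CPM with shRNA 1 and at 394, 370, 363 and 370 CPM with shRNA 2. The control was clear of both knockdown groups, which overlapped. Its log2 changes were -0.69 (SE 0.07, edgeR adjusted p = 1.09e-08) and -0.63 (SE 0.07, edgeR adjusted p = 6.72e-08). SLC38A2, known as SNAT2 and itself induced by amino acid shortage (ENSG00000134294, GRCh38 chromosome 12, 46358189 to 46372867, minus strand), stood at 281, 286, 287 and 284 CPM in the control. It stood at 192, 199, 183 and 181 CPM with shRNA 1 and at 196, 202, 193 and 187 CPM with shRNA 2, again with both knockdown groups below the control and overlapping. The changes were -0.59 (SE 0.06, edgeR adjusted p = 6.11e-09) and -0.55 (SE 0.06, edgeR adjusted p = 3.14e-08). Between shRNAs the difference was 0.06 for SLC38A1 (95% interval -0.09 to 0.20) and 0.04 for SLC38A2 (95% interval -0.08 to 0.16). With shRNA 1 replicates 3 and 4 alone, SLC38A1 was higher with shRNA 2 by 0.20 (edgeR adjusted p = 0.00469).

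**Figure D3:**
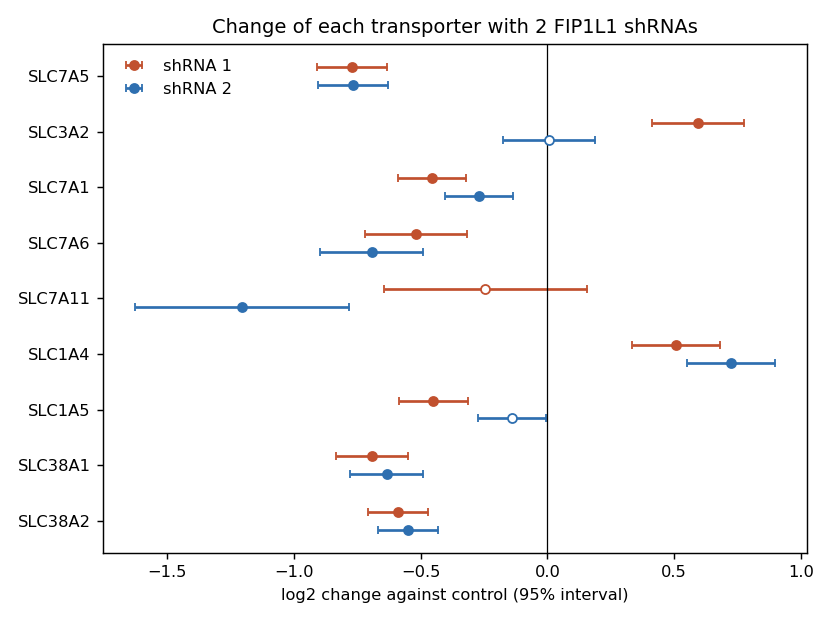
Log2 change of each transporter against the control with its 95% interval from the edgeR fit, for shRNA 1 and shRNA 2. Filled points have an adjusted p under 0.05 and open ones do not. The intervals of both shRNAs overlap for SLC7A5, SLC38A1 and SLC38A2 and are apart for SLC3A2, SLC7A11 and SLC1A5.

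Set directly against each other, shRNA 2 was higher than shRNA 1 for SLC7A1, SLC1A4 and SLC1A5, lower for SLC3A2 and SLC7A11, and not called for SLC7A5, SLC7A6, SLC38A1 and SLC38A2. The background of this comparison is 29.3% of all tested genes higher and 29.4% lower, 58.7% in either direction. Libraries of shRNA 1 and control did not overlap for 8 of the 9 transporters, 6 of them lower and 2 higher, beside 48.3% of all tested genes (24.6% lower and 23.7% higher). Those of shRNA 2 and control did not overlap for 8, with 7 lower and 1 higher, beside 50.2% (25.2% lower and 25.0% higher). Between the shRNAs 6 did not overlap, SLC3A2, SLC7A6 and SLC7A11 being lower with shRNA 2 and SLC7A1, SLC1A4 and SLC1A5 higher, beside 52.7% (25.7% lower and 27.0% higher).

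**Figure D4:**
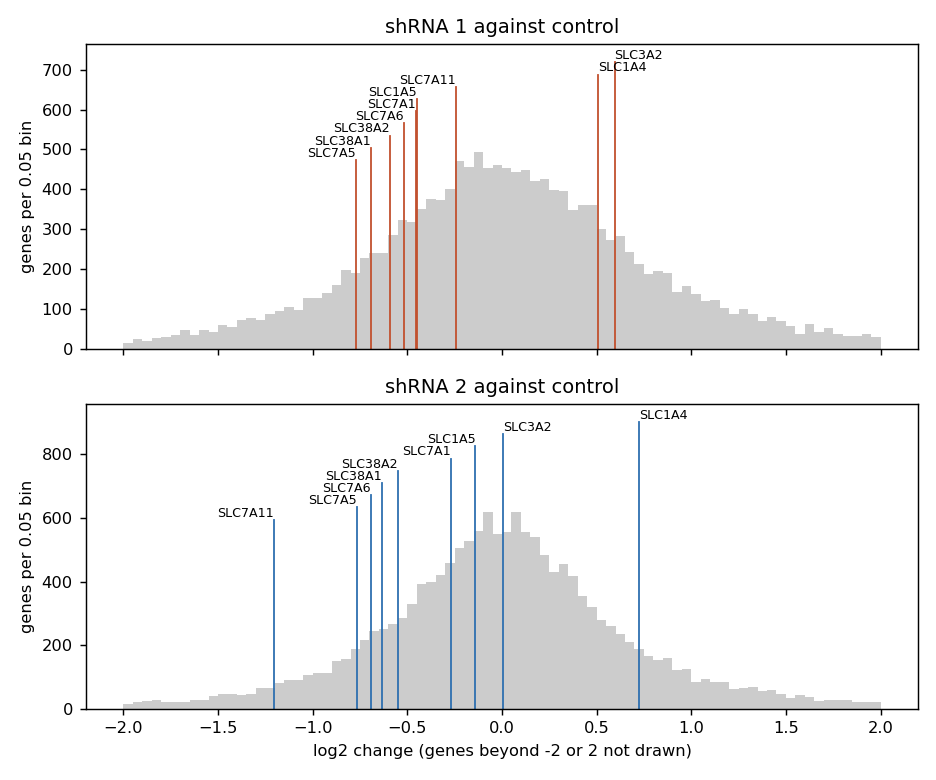
Histograms of the log2 change of all tested genes against the control (number of genes per bin of 0.05), with a labelled line for each transporter. Most lines lie left of 0 within the body of the distribution, SLC1A4 lies right of 0 in both panels, and SLC7A11 with shRNA 2 lies farthest out at -1.21.

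Levels of different genes were compared per kilobase of annotated exon. In the control SLC1A5 had the highest level, 91.8 ± 6.71 CPM per kilobase (SD, n = 4), followed by SLC7A5 with 79.3 ± 5.53, SLC38A1 with 58.0 ± 1.53, SLC38A2 with 43.1 ± 0.356, SLC7A1 with 28.9 ± 1.31 and SLC3A2 with 21.4 ± 1.40. The last 3 were SLC7A6 with 5.87 ± 0.836, SLC1A4 with 5.30 ± 0.624 and SLC7A11 with 0.786 ± 0.0807. Of neighbours in this order, only the libraries of SLC7A6 and SLC1A4 overlapped. With each shRNA SLC1A4 stood above SLC7A6, at 7.52 ± 0.369 against 4.08 ± 0.221 CPM per kilobase with shRNA 1 and 8.74 ± 0.350 against 3.62 ± 0.140 with shRNA 2. With shRNA 1 SLC3A2 moved up to 32.3 ± 5.03 CPM per kilobase, where its libraries overlapped those of both SLC38A1 (35.9 ± 4.05) and SLC38A2 (28.6 ± 1.28).

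Genes with a pattern most like that of SLC7A5 were ranked by the root mean square distance of log2 CPM, centred per gene, over the 12 libraries. Of 10918 genes with a mean of at least 5 CPM, the nearest were SEPTIN5 (distance 0.0614), TOB1 (0.0679), GEMIN5 (0.0791), DHX37 (0.0837) and SLC38A1 (0.0849). SLC38A2 ranked 45, SLC7A6 104, SLC7A1 541, SLC1A5 1362 and SLC7A11 5072. The heavy chain SLC3A2 ranked 7779, at a distance of 0.580, and SLC1A4 8984. This is a description over libraries that fall into 3 groups.

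Among 43 other amino acid carriers matched in the table, 21 were tested. In shRNA 1 cells 9 of them rose and 5 fell, with a median log2 change of 0.37, beside 28.6% and 28.7% of all tested genes. In shRNA 2 cells 6 rose and 8 fell, with a median of -0.23, beside 24.7% and 25.3%, and 7 passed in neither direction under each. Lower with both shRNAs were 4 carriers. SLC38A5, a further sodium-coupled glutamine carrier, fell from 179 ± 10.8 CPM (SD, n = 4) to 80.8 ± 5.94 and 66.9 ± 2.46. SLC16A10, which carries aromatic amino acids, had log2 changes of -1.19 and -1.44, and the taurine carrier SLC6A6 of -1.84 and -1.10 (largest edgeR adjusted p of these 3 genes 1.91e-07, for SLC16A10). The fourth was the arginine carrier SLC7A2, which fell by 0.83 and 1.36. The 5 that were higher with both, named after their values were seen, were SLC66A1, SLC36A1, SLC38A7, CTNS and SLC38A9. Their log2 changes ran from 0.31 for SLC38A7 to 1.16 for SLC66A1 with shRNA 1, and from 0.33 for SLC38A9 to 0.81 for SLC66A1 with shRNA 2. Opposite ways went SLC1A3, a glutamate carrier at 2.63 ± 0.414 CPM in the control, 14.5 ± 3.77 with shRNA 1 and 1.27 ± 0.542 with shRNA 2, and SLC38A10, whose change of -0.14 with shRNA 2 lost its call in 12 alternative settings.

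**Figure D5:**
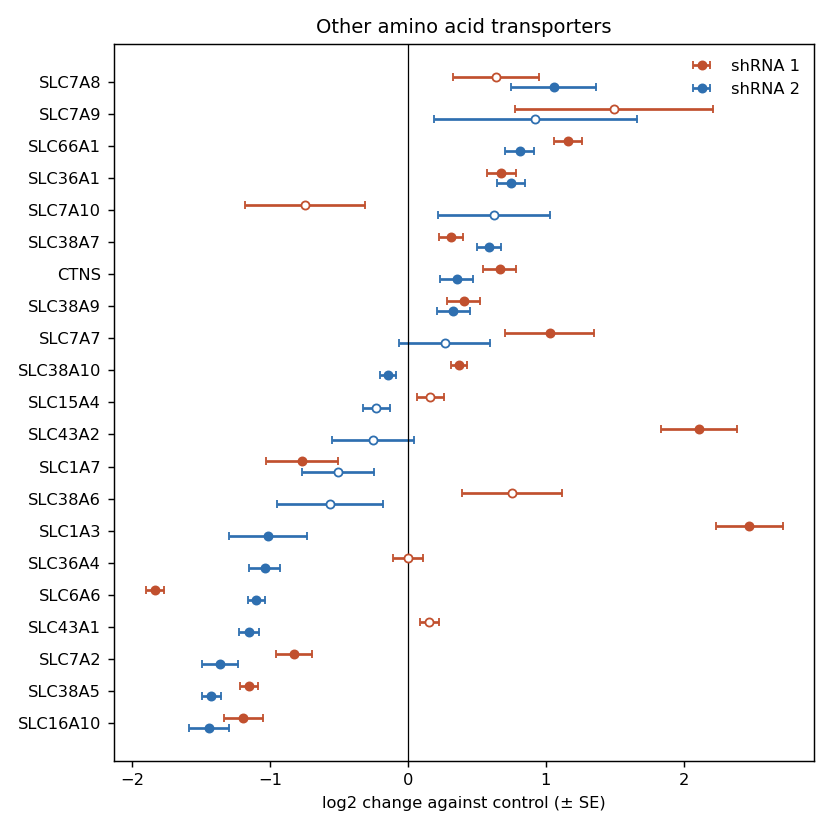
Log2 change against the control (± SE) of the 21 other amino acid carriers that were tested, ordered by the change with shRNA 2. Filled points have an adjusted p under 0.05. SLC16A10, SLC38A5, SLC6A6 and SLC7A2 are lower with both shRNAs, and SLC1A3 differs in sign between them.

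Regulators known to act on the transporter genes were counted in the same way. ATF4 rose with shRNA 1 and fell with shRNA 2, from 275 ± 19.3 CPM (SD, n = 4) in the control to 356 ± 55.8 and 193 ± 10.3, and the shRNAs differed by a tested log2 difference of -0.89 (SE 0.09, edgeR adjusted p = 1.54e-08). Of the 5 transporters with the composite motif shown above, SLC3A2 was lower with shRNA 2 than with shRNA 1. SLC1A5, SLC1A4 and SLC7A1 were higher, and SLC38A1 was not called. The background is 29.4% of all tested genes lower and 29.3% higher. SLC7A11, which was lower with shRNA 2 than with shRNA 1 (-0.96), had no start region to read. The part of ATF4 in these differences was not tested. The differences of SLC3A2 (-0.59) and SLC1A5 (0.31) kept their calls in all 21 alternative settings, and those of SLC1A4 and SLC7A1 did not. MYC fell with both, from 697 ± 19.5 CPM to 356 ± 34.0 and 458 ± 22.6. ATF5 and CEBPB, which act in the same stress response as ATF4, rose with both, ATF5 by 0.60 and 1.18 and CEBPB by 1.11 and 0.66. Other genes of this response, named after their values were seen, did not rise with both. DDIT3 and, from a list given below, CHAC1 rose with shRNA 1 (1.59 and 0.69) and were not called with shRNA 2. ASNS, also from a list below, was not called with shRNA 1 and fell by 0.33 with shRNA 2. NFE2L2, given here for the motif described above, rose by 0.85 and 0.48. Of the 16 regulators tested, 8 rose and 6 fell under shRNA 1, and 5 rose and 4 fell under shRNA 2, where 57.3% and 50.0% of all tested genes were called in either direction. Protein levels and translation were not measured.

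Enzymes that make or use the imported amino acids went in both directions. Of the 12 tested glutamine and asparagine enzymes, 4 fell with both shRNAs and 1 rose, beside 12.8% and 12.6% of all tested genes. The 1 that rose was GFPT1, named after its values were seen, with log2 changes of 0.42 and 0.62. GLUL, which makes glutamine, had a control level of 1587 ± 97.1 CPM (SD, n = 4) and fell to 341 ± 14.8 and 825 ± 21.4 CPM under shRNA 1 and 2. GLUD1, which breaks down glutamate, had log2 changes of -0.48 and -0.75, and CAD, which uses glutamine for pyrimidines, of -0.53 and -0.57. Of 12 tested glutamine and asparagine enzymes, 6 were lower with each shRNA (beside 28.7% and 25.3% of all tested genes) and 3 and 1 were higher (beside 28.6% and 24.7%). On the list for cystine and glutathione, GGT1, which breaks down glutathione outside the cell, fell from 47.6 ± 2.58 CPM to 27.8 ± 1.63 and 9.99 ± 1.39. The genes of glutathione synthesis were mixed. GCLM rose by 0.57 and 0.56, while GSS, named after its values were seen, had log2 changes of -1.07 and -0.44. GCLC was not called with either shRNA. CTH, which makes cysteine, fell by 0.76 and 0.50, the second of which lost its call in 5 alternative settings, with edgeR adjusted p up to 0.117 without control replicate 2. Of the 12 tested genes on that list other than SLC7A11, 3 were higher and 4 lower with shRNA 1, and 3 were higher and 3 lower with shRNA 2, which is near the 57.3% and 50.0% called among all tested genes.

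Proteins that bind the CD98 heavy chain or take carriers off the surface were mixed. ITGB1, the integrin that binds SLC3A2, held 273 ± 25.8 CPM (SD, n = 4) in the control, fell to 104 ± 10.3 under shRNA 1, where SLC3A2 rose, and rose to 424 ± 6.09 under shRNA 2. MARCHF8, a ubiquitin ligase known to remove SLC3A2 from the surface, had log2 rises of 0.73 and 1.03, and CD44, which binds SLC7A11, of 0.33 and 1.14. NEDD4L, a ubiquitin ligase, went opposite ways, at -0.24 for shRNA 1 (a call lost with upper quartile scaling, edgeR adjusted p = 0.0932) and 0.45 for shRNA 2. The integrin chain ITGA4 changed by -0.16 under shRNA 1, a call that was lost in 14 alternative settings, and by -0.95 under shRNA 2. Of the 12 genes tested on this list, 5 rose and 4 fell under shRNA 1, and 5 rose and 1 fell under shRNA 2, again beside 57.3% and 50.0% of all tested genes called.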

How the data were processed

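The authors deposited raw whole-number read counts for each Ensembl gene. The submitters' processing notes name DESeq2, STAR 2.7.3a, cutadapt 2.6 and hg19 with no roles. The counter, its annotation and its strand setting were not given in the sources used here, so reads of genes that overlap on opposite strands cannot be told apart. Per the labels' protocols, RNA was extracted with Trizol and libraries made with a NEBNext Ultra kit. The 10 3'READS libraries were not analysed here, since their sites carry no gene names and no annotation of hg19 was used. Any change in poly(A) site or transcript length of these genes between groups was therefore not examined. Counts, ratios of counts and levels per kilobase were not corrected for it.

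The 12 libraries entered 1 quasi-likelihood fit in edgeR 4.0.16 (R 4.3.3), with a term per group, TMM scaling, filterByExpr, robust spread estimates and 9 residual degrees of freedom. P-values were two-sided, were Benjamini-Hochberg adjusted over 15834 genes and counted as passed under 0.05. Standard errors are the log2 change over the root of F. CPM are given as mean ± SD. Symbols, GRCh38 positions and exon lengths came from GENCODE 29 and a table of current symbols, which named 45342 of 48162 IDs. Exon lengths are the union of annotated exons. The test was checked on simulated counts with 200 changed genes and the same spread for all genes. Far more genes were called in these data and their libraries spread unevenly, so the check does not measure error rates here. Alternatives were DESeq2 1.42.0, other scalings and low-count filters, fits of 2 groups only, a replicate block, and leaving out each library. The SLC7A5 to SLC3A2 ratio had a two-sided exact permutation test.

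The 9 genes and the lists were chosen with earlier results of these data known. From each list, genes with a mean of at least 5 CPM were named by rule: up to 3 that passed with both shRNAs in 1 direction and up to 2 that passed in opposite directions, ranked by the smaller change. Depth limits precision to counting error plus the spread between libraries.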

Additional observations from a re-analysis of the deposited data

Results flagged for a closer look

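In the 27 sets of 4 CPM values (9 transporters in 3 groups), 2 held a library far from the other 3 by Dixon's ratio at its 95% critical value, and chance flags about 1 in 20 such sets. SLC7A11 in shRNA 2 replicate 1 stood at 4.19 CPM, above the others of its group at 2.89 to 3.07 (ratio 0.862). SLC38A1 in control replicate 4 stood at 559 CPM, below the others at 587 to 593 (ratio 0.831). Both genes kept their side of the threshold against the control whichever library was left out, with edgeR adjusted p up to 0.000261 for SLC7A11 with shRNA 2 and up to 1.32e-06 for SLC38A1 with shRNA 2.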

How the results depend on the processing

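Of 567 refits of the 9 transporters' changes over the 3 comparisons, none reversed a called direction, 554 kept their side of the threshold, 8 lost a call and 5 gained one. All 8 losses were in shRNA 2 against shRNA 1, for SLC7A1 and SLC1A4. The number of transporters higher with shRNA 2 than with shRNA 1 was 3 and became 1 with upper quartile scaling, which moved the median log2 change of all tested genes with shRNA 1 from 0.02 to 0.12. The other counts of called transporters stayed within 1.5 times under each alternative. Of 838 refits of other named genes, 32 lost a call, for SLC38A10, CTH, ITGA4 and NEDD4L. Fits with shRNA 1 replicates 1 and 2 alone, or 3 and 4 alone, were chosen after seeing the data. Without 1 library of either group the SLC7A5 to SLC3A2 ratio changed by -1.49 to -1.25 with shRNA 1, -0.81 to -0.74 with shRNA 2, and 0.48 to 0.71 between them, where the exact test cannot reach 0.05 (smallest p 0.0571). Same-numbered libraries of different groups are not said to share a batch. Their deviations correlated by -0.033 to 0.065 across genes, and 7 of 24 checks found a library closest to its own number. Single genes could still follow the number, and ELANE was lower in replicates 1 and 2 than in 3 and 4 of each group. A batch shared by some of the genes was not tested. With a replicate block the counts of transporters lower and higher stayed at 6 and 2 with shRNA 1, 6 and 1 with shRNA 2, and 2 and 3 between shRNAs, and over all genes 4508 were higher and 4615 lower with shRNA 1, in place of 4533 and 4543. Depth limited SLC7A11 most, with 44 to 153 counts per library.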
